A study of Mus musculus with 12 samples.

Results

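Type 2 conventional dendritic cells (cDC2) of lymphoid origin were set against cDC2 of myeloid origin over both systems in which the study traced origin, to describe the genes whose level differed with origin whichever way origin was defined. All 12 of the 12 libraries entered. L-cDC2 and CLP-cDC2 made up the 6 libraries of lymphoid origin, M-cDC2 and CDP-cDC2 the 6 of myeloid origin, and the system, reporter or transfer, was a block in an additive fit. The comparison was described across 14538 genes, those of the 55322 in the table that reached 1 FPKM (fragments scaled by gene length and by library total) in at least 3 libraries. In the reporter system, L-cDC2 (3 libraries) and M-cDC2 (3 libraries) were the tdTomato+ and tdTomato- cells of Il7r-Cre;Rosa26-lsl-tdTomato mice. Cre is made there from Il7r, and a cell whose ancestors expressed Il7r stays red. In the transfer system, CLP-cDC2 (3 libraries) and CDP-cDC2 (3 libraries) were the CD45.2 offspring of common lymphoid progenitors (CLP) or common dendritic cell progenitors (CDP) from wild-type C57BL/6J mice, injected into the marrow of CD45.1 B6.SJL recipients. Cells of all 4 groups were taken from spleen 4 days after 5 mg/kg of intraperitoneal lipopolysaccharide (LPS), so the groups share LPS and hold no untreated control. Mice were 7 to 8 weeks old. The tdTomato mark records past Il7r expression rather than passage through a CLP. Any conditioning of the recipients, the sort markers and whether L-cDC2 and M-cDC2 shared mice are not given in the sources used here.

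Conventional dendritic cells take up antigen and present it to T cells, and cDC2 are the subset that presents mainly to CD4 T cells. Most descend from CDPs, which lie in the myeloid branch and depend on Flt3 signalling, while CLPs, known above all as the source of B, T and natural killer (NK) cells, can also give rise to dendritic cells. Il7r is switched on in lymphoid progenitors, which is why it serves to mark their descendants.

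Libraries held 26543345 to 73732243 assigned reads and 12860 to 13892 genes at 1 FPKM or more. Genes used to define the labelled cell type were expressed across the 12 libraries. Itgax stood at 54.8 to 166 FPKM, Sirpa at 38.1 to 163, Flt3 at 86.2 to 121 and Irf4 at 4.05 to 7.95. Of genes of the cDC1 subset, the chemokine receptor Xcr1 stood at 1.57 to 7.25 FPKM and the transcription factor Irf8 at 21.4 to 79.9. A list of 14 cDC1 genes summed to 247 to 436 FPKM, and summed levels for other cell types are given below. Libraries are named below by group and replicate number, so that L1 is replicate 1 of L-cDC2. CDP3 stood apart on the second principal component and M3 on the third. Whether replicates are separate animals is not stated, and p-values therefore reflect just the spread among these samples, which may be technical. Levels are from bulk RNA, in which more cells of a type and more RNA per cell cannot be told apart.

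Over both systems, 137 genes were higher in cells of lymphoid origin (0.942% of genes tested) and 125 were lower (0.860%), by limma on log2(FPKM + 1) with Benjamini-Hochberg adjusted p under 0.05, and 1934 genes had an unadjusted p under 0.05. Of the higher genes 101 were protein-coding, and of the lower genes 109. Differences among the higher genes ran from 0.33 to 4.15 on the log2(FPKM + 1) scale with a median of 0.80, and the lower genes had sizes from 0.34 to 2.14 with a median of -0.90, beside a median of 0.03 over all genes tested. Higher genes made up 52.3% of the called genes, 46.1% after quantile normalization and 41.2% after median-of-ratios scaling. The higher count was 71 without CLP2, 75 and 85 without L1 and L3, 79 without CDP1 and 88 without M2. The lower count was 82 without CDP2. With CDP3 and M3 both left out, 120 genes were higher and 110 lower, of which 87 and 91 were called with all libraries too. The counts also moved with the model, to 475 higher and 351 lower when 4 group means were fitted in place of additive terms, 47 and 49 with no filter on low values and 41 and 45 with the replicate number as a block. In all 12 fits that each left out 1 library, 59 higher and 74 lower genes kept their call.

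Origin, system and their interaction accounted for like parts of the variation. Origin took up 18.9% of the sum of squares over the tested genes, system 19.6%, their interaction 17.6% and the spread within groups 43.9%. Across the 14538 genes, the difference L-cDC2 minus M-cDC2 and the difference CLP-cDC2 minus CDP-cDC2 had a Pearson r of 0.05 and a Spearman rho of -0.13, given as a description, since genes are not independent and all libraries were processed together. They had the same sign for 44.1% of genes. By contrast alone, 188 genes were higher (1.29%) and 64 lower (0.440%) in L-cDC2 than M-cDC2, and 1021 were higher (7.02%) and 889 lower (6.12%) in CLP-cDC2 than CDP-cDC2. In both contrasts 33 genes were higher, 33 were lower and 13 went opposite ways. All 262 genes called in the additive fit (1.80% of genes tested) had the same sign in both systems, which the choice by that fit favours and which is no separate result.

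**Figure D1:**
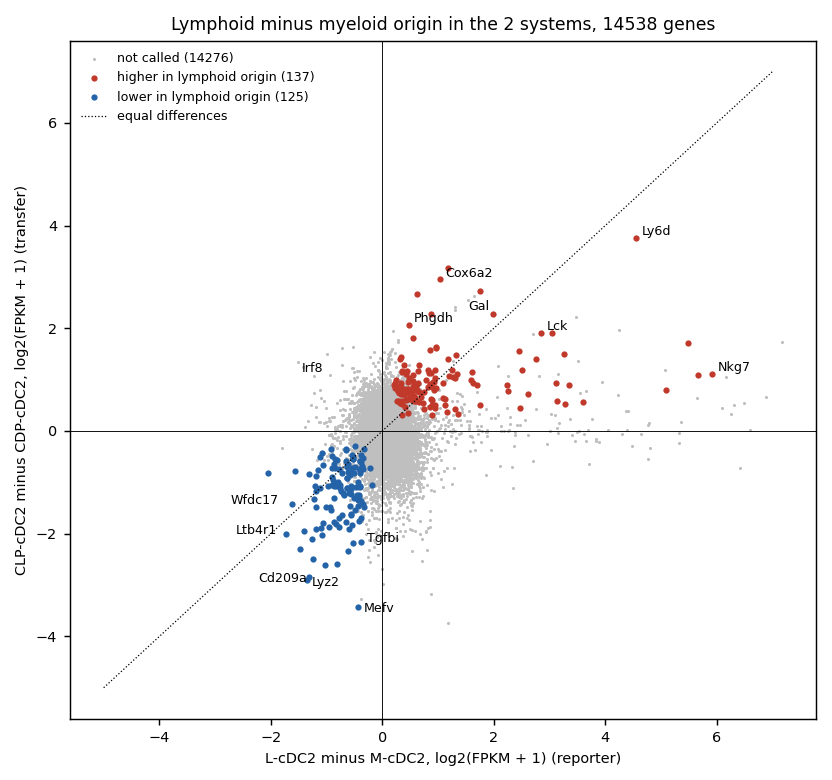
Each point is a gene, with the L-cDC2 minus M-cDC2 difference on the horizontal axis and the CLP-cDC2 minus CDP-cDC2 difference on the vertical axis, both in log2(FPKM + 1). The 137 genes higher in lymphoid origin (red) lie in the upper right and the 125 lower genes (blue) in the lower left, while the other genes (grey) spread along both axes with little relation between them.

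In 109 of the 137 higher genes and 112 of the 125 lower genes, the libraries of both origins did not overlap in either system. The choice of these genes by a fit to the same libraries favours this, so it is no separate result. Over all genes tested, 233 (1.60%) lay above without overlap in both systems, 200 (1.38%) lay below in both, and 496 (3.41%) lay above in 1 system and below in the other. Without L2 the first 2 counts were 434 and 301, and without M3 they were 356 and 304, where fewer libraries leave less room for overlap. Of the higher genes 104 were also called in the transfer contrast, 56 in the reporter contrast and 10 in neither. Of the lower genes 111 were also called in the transfer contrast, 40 in the reporter contrast and 7 in neither. The contrasts use the same libraries as the additive fit, so these counts are favoured by the choice too.

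Genes of early lymphoid development were led by Ly6d, a small surface protein that marks B-cell-biased lymphoid progenitors (ENSMUSG00000034634, deposited at chromosome 15 from 74633905 to 74635469, a build not given in the sources used here). Ly6d stood at 45.9, 33.2 and 41.2 FPKM in the L-cDC2 libraries in order of replicate, at 0.95, 0.03 and 1.64 in M-cDC2, at 68.7, 36.4 and 23.9 in CLP-cDC2 and at 2.94, 3.45 and 0.49 in CDP-cDC2. Every library of lymphoid origin thus lay far above every library of myeloid origin. The difference was 4.15 ± 0.33 (SE, limma adjusted p = 0.00013), 4.55 in the reporter and 3.76 in the transfer system, and it ran from 3.94 to 4.35 when each library was left out in turn.

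Tcf7, the transcription factor TCF-1 of T cell and innate lymphoid development (ENSMUSG00000000782, chromosome 11 from 52143198 to 52174158), had near-equal differences in both systems. Its level was 6.79, 7.29 and 6.20 FPKM in L-cDC2, 2.23, 2.45 and 2.11 in M-cDC2, 9.70, 8.28 and 7.54 in CLP-cDC2 and 2.49, 3.69 and 3.43 in CDP-cDC2. The groups of both origins were separate, with a difference of 1.22 ± 0.11 (SE, limma adjusted p = 0.00022), 1.25 in the reporter and 1.18 in the transfer system. Il7r, the interleukin-7 receptor chain whose locus drives Cre in the reporter mice (ENSMUSG00000003882, chromosome 15 from 9505874 to 9530262), was low in all groups. Its values were 3.05, 2.198 and 1.92 FPKM in L-cDC2, 0.84, 0.82 and 1.19 in M-cDC2, 3.16, 2.36 and 2.91 in CLP-cDC2 and 1.16, 0.89 and 0.68 in CDP-cDC2. No library of myeloid origin reached a library of lymphoid origin, and the difference was 0.89 ± 0.13 (SE, limma adjusted p = 0.0024). Of the list of early lymphoid genes, Ly6d, Tcf7 and Il7r were higher and none was lower among 10 tested, with a median difference of 0.35 beside 0.03 over all genes. By system the list's median was 0.62 in the reporter and 0.10 in the transfer system.

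Genes of T cell receptor signalling came next. Lck, the kinase that starts signalling at the T cell receptor (ENSMUSG00000000409, chromosome 4 from 129442137 to 129467434), stood at 11.96, 9.90 and 10.2 FPKM in L-cDC2, 0.87, 0.54 and 0.48 in M-cDC2, 11.1, 5.03 and 3.92 in CLP-cDC2 and 0.24, 1.47 and 1.19 in CDP-cDC2. The lowest library of lymphoid origin was above the highest of myeloid origin, and the difference was 2.38 ± 0.25 (SE, limma adjusted p = 0.00039). Mir8119, a microRNA gene that overlaps an exon of Lck on the same strand, had a difference of 2.48, and reads of the pair cannot be told apart. Cd2, an adhesion receptor of T and NK cells, had a difference of 2.03, with 3.11 in the reporter system and 0.94 in the transfer system, where CLP-cDC2 (0.50 to 2.62 FPKM) and CDP-cDC2 (0.02 to 0.53 FPKM) overlapped. The T cell receptor beta constant genes Trbc1 (1.84) and Trbc2 (1.86) were higher too, and being near-identical copies they are uncertain individually. Of the list of the T cell receptor and its proximal signalling, these 4 genes (Lck, Cd2, Trbc1 and Trbc2) of 8 tested were higher and none was lower, with a median of 1.21 (1.83 without L1, where 7 were tested). By system that median was 1.77 in the reporter and 0.35 in the transfer system. The call of Trbc2 was lost without any 1 of the 3 L-cDC2 or 3 M-cDC2 libraries or CLP2 (limma adjusted p up to 0.069).

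The T cell marker Cd3e was at or near 0 in every library (0 to 0.15 FPKM), and at 0 in all 3 M-cDC2 libraries and in CLP1 and CLP3. Some other members of its list were not near 0 in L-cDC2, where Trbc1 stood at 4.60 to 7.95 FPKM and Trbc2 at 6.33 to 13.2. The 16 genes of the T cell receptor list summed to 48.1 to 62.5 FPKM in L-cDC2, 8.999 to 11.5 in M-cDC2, 16.8 to 27.7 in CLP-cDC2 and 12.2 to 15.3 in CDP-cDC2. The part of T cells in these differences was not tested.

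Some B cell genes were also higher in lymphoid origin. Fcer2a, the low-affinity IgE receptor CD23 (ENSMUSG00000005540, chromosome 8 from 3731737 to 3744175), stood at 6.86, 5.93 and 6.53 FPKM in L-cDC2, 1.63, 2.12 and 2.25 in M-cDC2, 2.04, 3.20 and 2.31 in CLP-cDC2 and 0.14, 0.53 and 0.11 in CDP-cDC2. Libraries of both origins were separate within each system, although CLP-cDC2 lay at the level of M-cDC2. The difference was 1.40 ± 0.13 (SE, limma adjusted p = 0.00022), 1.31 in the reporter and 1.48 in the transfer system. Blk, a Src-family kinase of the B cell receptor (ENSMUSG00000014453, chromosome 14 from 63610285 to 63654486), stood at 15.7, 11.9 and 11.5 FPKM in L-cDC2, 3.59, 3.54 and 3.77 in M-cDC2, 5.17, 4.88 and 4.22 in CLP-cDC2 and 1.05, 1.96 and 2.93 in CDP-cDC2. It too was separate in both systems, with a difference of 1.29 ± 0.17 (SE, limma adjusted p = 0.0014).

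Ms4a1, which encodes the B cell surface protein CD20, had a difference of 0.75 and kept its call in all 12 fits with a library left out (limma adjusted p up to 0.040). Among the B cell genes, 6 of 11 tested were higher and none was lower, namely Fcer2a, Blk, Ms4a1, the Fc receptor-like protein Fcrla (0.70), the mu heavy chain Ighm (0.61) and the receptor signalling chain Cd79b (0.57), and the median was 1.14. By system the median was 1.31 in the reporter and 0.58 in the transfer system, and the transfer libraries alone called 1 of the 11. Fcrla lost its call without L3, M1, CLP1 or CLP2 or CDP1 (limma adjusted p up to 0.069). Ighm lost its call without L1 or L3, any 1 M-cDC2 library or CLP2 (up to 0.078). Cd79b lost its call without any 1 L-cDC2 or CLP-cDC2 library or M1 or M2 (up to 0.08). The count of the list was 3 without CLP2, without L3 or without M1. Blnk, the adaptor of B cell receptor signalling, was chosen after its value was seen and had a difference of 1.17, 1.30 in the reporter and 1.04 in the transfer system.

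The B cell receptor chain gene Cd79a moved with origin in the reporter system. It stood at 50.9 to 57.8 FPKM in L-cDC2, 0.14 to 0.59 in M-cDC2, 0.17 to 3.51 in CLP-cDC2 and 0.33 to 1.24 in CDP-cDC2. The 15 genes of the B cell list summed to 1670 to 2394 FPKM in L-cDC2, 466 to 494 in M-cDC2, 485 to 1068 in CLP-cDC2 (highest in CLP2) and 422 to 473 in CDP-cDC2. The plasma cell list summed to 341 to 498, 85.4 to 98.6, 78.5 to 182 (again highest in CLP2) and 85.3 to 97.5 FPKM in the same order of groups, and none of its 7 tested members was called in the additive fit. Fcer2a, Blk and the sum of the B cell list were above every CDP-cDC2 library in each CLP-cDC2 library. The sum was 516 FPKM in CLP1 and 485 FPKM in CLP3, the latter near the CDP-cDC2 maximum of 473 FPKM and within the M-cDC2 range. The part of B cells in the differences of either system was not tested.

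**Figure D2:**
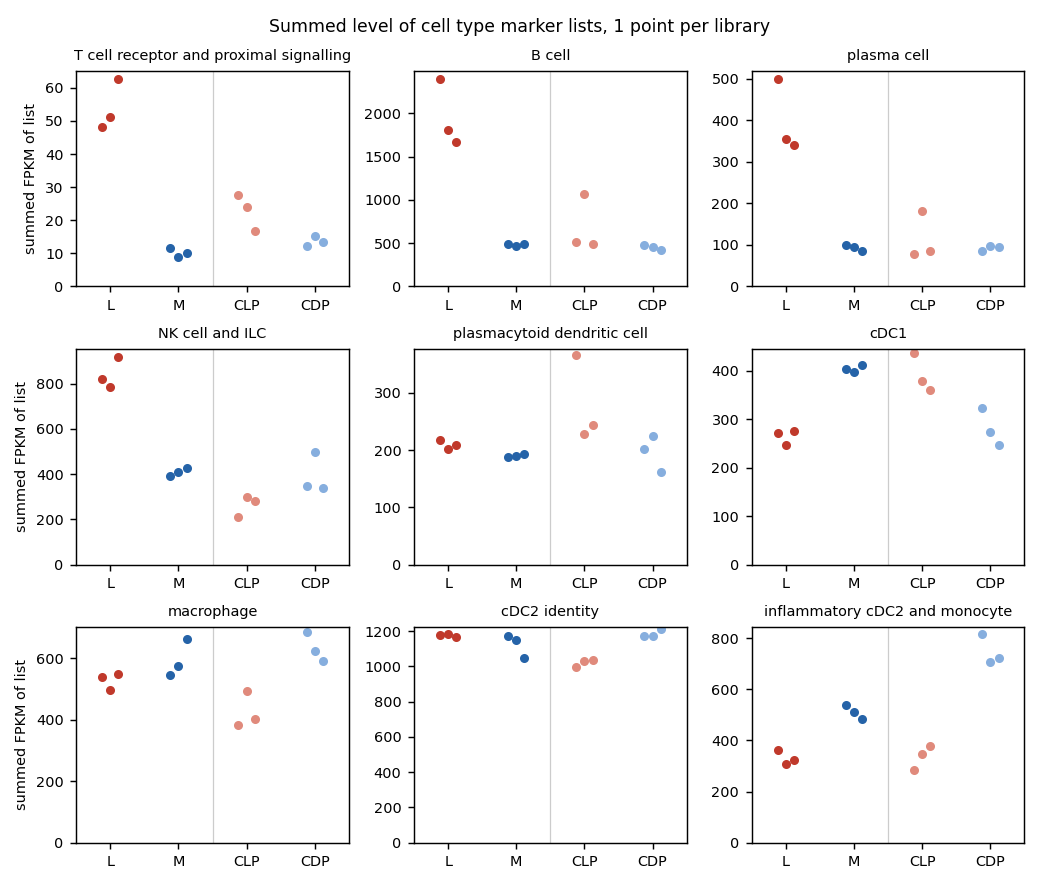
Each panel gives the summed FPKM of the genes of a marker list on a linear axis from 0, with 1 point per library in L-, M-, CLP- and CDP-cDC2. The B cell, plasma cell, NK cell and T cell receptor lists stand highest in the 3 L-cDC2 libraries, and CLP2 stands above the other CLP-cDC2 libraries for the B cell and plasma cell lists.

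Some genes of NK cells and innate lymphoid cells were higher, by more in the reporter system than in the transfer system. Xcl1, the chemokine ligand of Xcr1 (ENSMUSG00000026573, chromosome 1 from 164759213 to 164763096), stood at 9.01, 12.2 and 9.49 FPKM in L-cDC2, 0.53, 0 and 0.04 in M-cDC2, 1.52, 3.23 and 1.10 in CLP-cDC2 and 0 in all 3 CDP-cDC2 libraries. Its groups did not overlap in either system, and the difference was 2.38 ± 0.30 (SE, limma adjusted p = 0.0011), larger in the reporter system by 1.76 (limma adjusted p = 0.016 for that interaction). Set against 0.157 FPKM, the highest value that 3 reads have in a CDP-cDC2 library, the CLP-cDC2 mean of 1.95 FPKM was at least 12.4-fold higher, a bound for counting error only. Xcl1 overlaps Gm20743 on the other strand.

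Nkg7, a granule membrane protein of cytotoxic lymphocytes, was at 72.3 to 106 FPKM in L-cDC2, 0.09 to 0.67 in M-cDC2, 0.57 to 6.45 in CLP-cDC2 and 0 to 3.55 in CDP-cDC2, so the transfer groups overlapped. Its difference was 3.52 over both systems, 5.92 in the reporter and 1.12 in the transfer system. Ncr1, the NK receptor NKp46 (1.91), and the killer cell lectin-like receptor Klre1 (0.76) were higher as well. Of the 14 genes of the NK and innate lymphoid list 13 were tested, 4 of them higher (Xcl1, Nkg7, Ncr1 and Klre1) and none lower, with a median of 1.27. By system the median of the 13 genes was 2.29 in the reporter and 0.27 in the transfer system. The filter on low values depended on the group where these genes were high: without any 1 L-cDC2 library 8 were tested, and the median was 0.45, 0.52 and 0.52 without L1, L2 and L3. Only Xcl1 of these kept its call in every fit with a library left out. Nkg7 and Klre1 lost theirs without any 1 L-cDC2 or M-cDC2 library or CLP2, and further without CDP1 for Nkg7 (limma adjusted p up to 0.08) and without CLP3 for Klre1 (up to 0.076). The list's count was 1 without any 1 L-cDC2 or M-cDC2 library or CLP2. Ncr1, which was at 6.83 to 14.2 FPKM in L-cDC2 and under 1 FPKM in the other libraries, lost its call without any 1 M-cDC2 library or CLP2 (up to 0.076), and it was not tested without any 1 L-cDC2 library. The 14 genes of the list summed to 785 to 919 FPKM in L-cDC2 against 392.3 to 426 in M-cDC2, but to 210 to 297 in CLP-cDC2 against 340 to 499 in CDP-cDC2, the opposite order. In CDP3, where the list summed to 340 FPKM, Xcl1, Ncr1, Nkg7, Eomes, Prf1, Gzma and Gzmb were at 0. The sum there came from the other members, so it does not stand for the list as a set. The part of NK cells in these values was not tested. S1pr1, the sphingosine receptor for egress into lymph, did not pass in the additive fit (0.93, limma adjusted p = 0.098), with 1.77 in the reporter and 0.09 in the transfer system.

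Several genes outside the lymphoid lists were higher in both systems. Gal, the neuropeptide galanin (ENSMUSG00000024907, chromosome 19 from 3459915 to 3464544), stood at 6.65, 5.40 and 6.30 FPKM in L-cDC2, 0.68, 0.26 and 1.72 in M-cDC2, 4.41, 10.1 and 6.07 in CLP-cDC2 and 0.03, 0.95 and 0.87 in CDP-cDC2. All 6 libraries of lymphoid origin exceeded all 6 of myeloid origin. The difference was 2.13 ± 0.23 (SE, limma adjusted p = 0.00044), 1.99 in the reporter and 2.27 in the transfer system.

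The actin-binding genes Capg (1.30) and Tpm2 (1.22), the lactate dehydrogenase subunit Ldhb (1.07), the small GTPase Gem (1.002), the Nogo receptor homologue Rtn4rl1 (0.99), the protease inhibitor Serpinb1a (0.99) and the Polycomb subunit Phc1 (0.83) were higher too. These 7 genes kept their calls with any library left out (limma adjusted p up to 0.018). Each had separate groups in both systems, which was a condition for being named and is no separate result. Phc1 had differences of 0.82 and 0.85 in the reporter and transfer systems and Rtn4rl1 of 0.95 and 1.04. Snord45b (1.16), a small nucleolar RNA gene that overlaps an exon of Rabggtb on the same strand, cannot be told apart from it here.

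Ccr6, the receptor for Ccl20 (ENSMUSG00000040899, chromosome 17 from 8454875 to 8475973), was the only called gene of 18 chemotaxis and egress receptors in the higher direction, beside Ltb4r1 in the lower. It stood at 33.1, 27.4 and 38.2 FPKM in L-cDC2, 15.9, 19.6 and 16.0 in M-cDC2, 16.2, 29.7 and 15.8 in CLP-cDC2 and 11.4, 13.6 and 7.29 in CDP-cDC2. The origins were separate within each system, with CLP-cDC2 reaching down to the M-cDC2 range. The difference was 0.88 ± 0.17 (SE, limma adjusted p = 0.021), 0.90 in the reporter and 0.86 in the transfer system, and the call was lost without L3 (0.054) or M1 (0.051).

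Phgdh, which starts serine synthesis, was the only called member of 12 serine and one-carbon genes. It had a difference of 1.27, made up of 0.47 in the reporter and 2.07 in the transfer system (limma adjusted p = 0.013 for the interaction), and lost its call without any 1 CLP-cDC2 library or CDP1 or CDP2 (up to 0.076). Cox6a2, a cytochrome oxidase subunit that plasmacytoid dendritic cells also express, was at 13.005 to 56.1 FPKM in CLP-cDC2 and had differences of 1.03 and 2.95 in the reporter and transfer systems (1.99 over both), and it overlaps Itgad on the other strand. Its call was lost without L1, M1 or M2, CLP2 or CLP3 or any 1 CDP-cDC2 library (up to 0.093). Of the plasmacytoid list 2 of 11 tested members were higher, Ly6d and Cox6a2, and Siglech, a defining member, did not pass (0.71, limma adjusted p = 0.26). The list summed to 202 to 218 FPKM in L-cDC2, 188 to 194 in M-cDC2, 228 to 367 in CLP-cDC2 and 161 to 225 in CDP-cDC2, and the part of plasmacytoid cells was not tested.

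A few genes of mitosis were higher. Plk1, the mitotic Polo-like kinase (ENSMUSG00000030867, chromosome 7 from 121758662 to 121769096), stood at 52.6, 48.6 and 46.1 FPKM in L-cDC2, 36.3, 31.0 and 31.5 in M-cDC2, 67.9, 56.6 and 77.4 in CLP-cDC2 and 42.3, 33.0 and 49.4 in CDP-cDC2. Its libraries were separate within each system, and the difference was 0.63 ± 0.11 (SE, limma adjusted p = 0.012), 0.56 in the reporter and 0.69 in the transfer system. Plk1 overlaps Gm44985 on the other strand. Among the cell cycle genes, 5 of 36 tested were higher and none was lower, namely Plk1, the kinase Aurka (0.58), the anaphase activator Cdc20 (0.55) and the kinetochore proteins Cenpe (0.57) and Cenpf (0.44). The fitted difference was above 0 in 35 of the 36, with a median of 0.43, 0.21 in the reporter and 0.65 in the transfer system, beside 0.03 over all genes. Plk1 was the only 1 of the 5 to keep its call in all 12 fits with a library left out. The call of Cenpf held only without L2, that of Cenpe only without that library or M1, that of Cdc20 only without L2 or L3 or M3, and that of Aurka only without L2, M1 or M3 or CDP3 (limma adjusted p up to 0.12 otherwise). The list's count was 1 without CLP1, CLP2 or CLP3, CDP1 or CDP2, L1 or M2. It was 2 without L3 and 11 without L2. Median-of-ratios scaling left 1 called member with the median at 0.40.

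**Figure D3:**
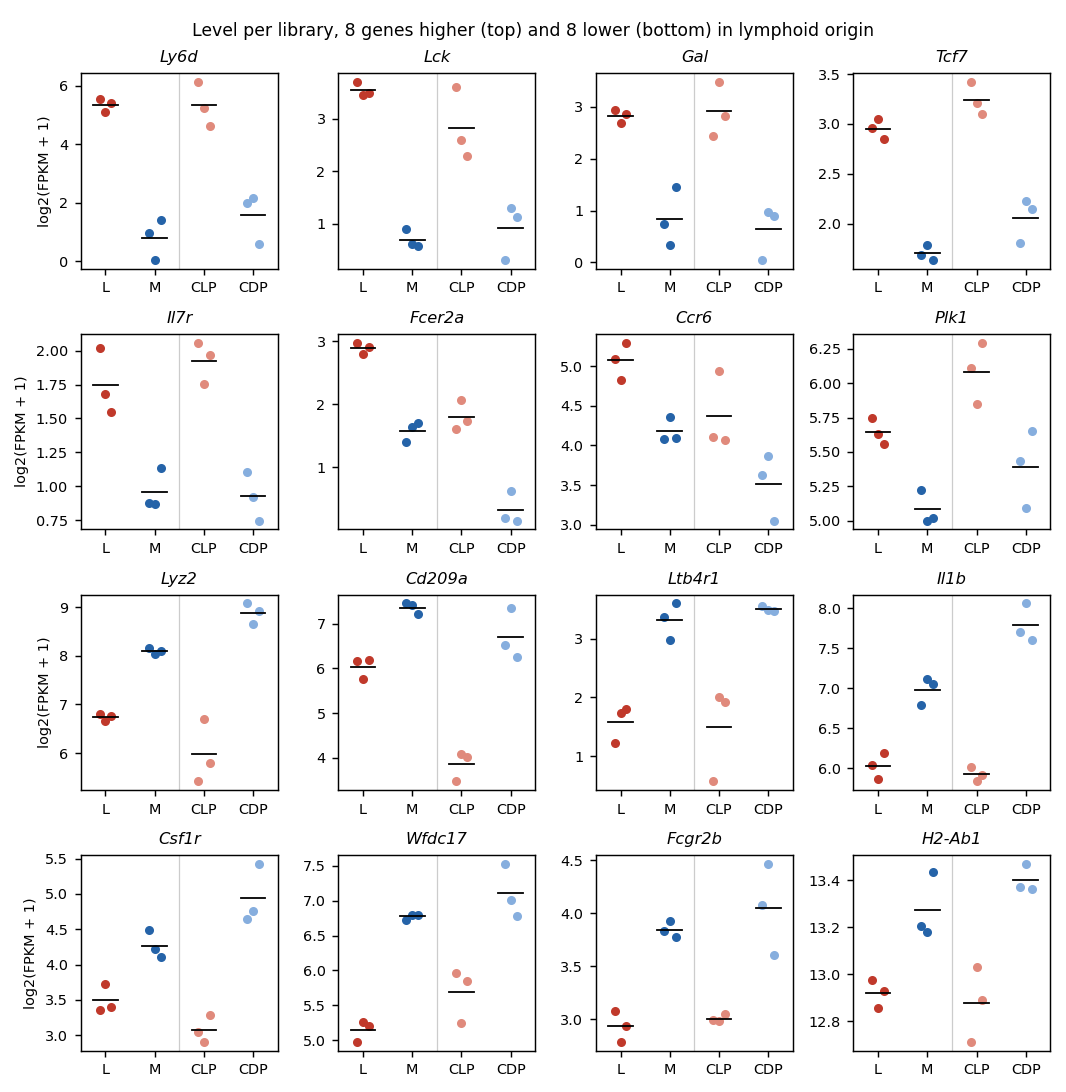
Points are single libraries and bars group means, in log2(FPKM + 1), for 8 genes higher in lymphoid origin (upper 2 rows) and 8 lower (lower 2 rows) in L-, M-, CLP- and CDP-cDC2. In each of the 16 panels the points of L lie apart from those of M, and the points of CLP apart from those of CDP, in the same direction.

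Lyz2, the lysozyme of monocytes and macrophages, had the largest lower difference (ENSMUSG00000069516, chromosome 10 from 117113236 to 117118226, with a close paralog in Lyz1). It stood at 111, 99.4 and 108 FPKM in L-cDC2, 286, 263 and 274 in M-cDC2, 41.8, 104 and 54.6 in CLP-cDC2 and 540, 401 and 486 in CDP-cDC2. All 6 libraries of lymphoid origin were below all 6 of myeloid origin. The difference was -2.14 ± 0.27 (SE, limma adjusted p = 0.0013), with -1.36 in the reporter and -2.91 in the transfer system (limma adjusted p = 0.023 for the interaction).

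Cd209a, a DC-SIGN-related C-type lectin of cDC2 (ENSMUSG00000031494, chromosome 8 from 3793397 to 3798984), stood at 70.4, 53.3 and 71.5 FPKM in L-cDC2, 174, 169 and 146 in M-cDC2, 10.1, 16.1 and 15.1 in CLP-cDC2 and 91.1, 162 and 75.2 in CDP-cDC2. It was lower in every library of lymphoid origin, with a difference of -2.09 ± 0.27 (SE, limma adjusted p = 0.0015), -1.32 and -2.85 in the reporter and transfer systems. Clec7a, the beta-glucan receptor Dectin-1 (ENSMUSG00000079293, chromosome 6 from 129438554 to 129449742), stood at 5.73, 4.21 and 5.30 FPKM in L-cDC2, 14.5, 17.6 and 9.16 in M-cDC2, 2.701, 2.35 and 2.78 in CLP-cDC2 and 15.9, 24.3 and 18.5 in CDP-cDC2. Again no library of lymphoid origin reached the myeloid range, and the difference was -1.87 ± 0.23 (SE, limma adjusted p = 0.00093).

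Of 17 tested C-type lectins, Cd209a, Clec7a and Clec4a3, a lectin of the DCIR group (-1.56), were lower and none was higher, with a median of -0.29. Of 11 tested genes of inflammatory cDC2 and monocytes 4 were lower and none was higher, with a median of -0.80, namely Lyz2, Csf1r, Cd14 and the signal-regulatory protein Sirpb1c (-0.89). Sirpb1c lost its call without M1, CLP2 or CLP3 or any 1 CDP-cDC2 library (limma adjusted p up to 0.09). That list summed to 308 to 361 FPKM in L-cDC2, 483 to 540 in M-cDC2, 283 to 380 in CLP-cDC2 and 706 to 817 in CDP-cDC2. Of 8 tested macrophage genes none was called in either direction, while the macrophage list summed to 497 to 548 FPKM in L-cDC2, 545 to 663 in M-cDC2, 382 to 493 in CLP-cDC2 and 590 to 687 in CDP-cDC2. The part of monocytes or macrophages in the sort was not tested.

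Some receptors for myeloid growth factors and microbial products were lower. Csf1r, the receptor for macrophage colony-stimulating factor, stood at 9.21, 12.2 and 9.54 FPKM in L-cDC2, 21.4, 17.6 and 16.2 in M-cDC2, 7.26, 6.49 and 8.76 in CLP-cDC2 and 24.0, 26.1 and 41.9 in CDP-cDC2. The origins were separate, with a difference of -1.32 ± 0.21 (SE, limma adjusted p = 0.0046), -0.78 in the reporter and -1.86 in the transfer system, and the gene shares exon sequence with Hmgxb3 on the other strand. Cd14, the co-receptor that hands LPS to Tlr4, stood at 0.50, 0.44 and 0.42 FPKM in L-cDC2, 2.82, 1.72 and 2.76 in M-cDC2, 0.27, 0.52 and 0.34 in CLP-cDC2 and 3.68, 2.36 and 1.61 in CDP-cDC2. It was under 1 FPKM in all 6 libraries of lymphoid origin and above it in all 6 of myeloid origin, with a difference of -1.28 ± 0.15 (SE, limma adjusted p = 0.00071), -1.23 and -1.33 in the reporter and transfer systems.

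Csf2ra, a chain of the receptor for granulocyte-macrophage colony-stimulating factor, was the other lower member of the 8 tested myeloid progenitor genes besides Csf1r. Its difference was -0.62, with -0.19 in the reporter and -1.05 in the transfer system, and its call (limma adjusted p = 0.049) was lost without any 1 CLP-cDC2 or CDP-cDC2 library, L1 or L3 or M2 or M3 (up to 0.11). Of 21 Toll-like receptor signalling genes, Cd14 and Tlr11, the sensor of protozoan profilin (-0.92), were lower and none was higher, with a median of -0.19. Tlr12 had the highest fitted difference of that list (0.96) and was not called. Tlr11 lost its call without L1 or L3, M1 or M2, CLP1 or CLP3 or CDP2 (up to 0.066).

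Lipid mediator genes included 3 that were lower. Ltb4r1, the high-affinity receptor for leukotriene B4 (ENSMUSG00000046908, chromosome 14 from 56003419 to 56005951), stood at 1.34, 2.32 and 2.48 FPKM in L-cDC2, 9.40, 6.90 and 11.2 in M-cDC2, 0.49, 3.02 and 2.79 in CLP-cDC2 and 10.7, 10.3 and 10.1 in CDP-cDC2. Its libraries were separate by origin, and the difference was -1.87 ± 0.22 (SE, limma adjusted p = 0.00089), -1.74 in the reporter and -2.01 in the transfer system. Pla2g7, which degrades platelet-activating factor, had a difference of -1.70 (-0.81 and -2.60 in the 2 systems, limma adjusted p = 0.0064 for the interaction) and overlaps an antisense gene. Ptafr, the receptor for platelet-activating factor, had -0.91, with -0.34 in the reporter and -1.49 in the transfer system (limma adjusted p = 0.023 for the interaction). In total, 3 of the 10 tested eicosanoid and leukotriene genes were lower and none higher, with a median of -0.14. The fitted difference was above 0 in 4 of the 10. Ptafr lost its call without L3, M1 or any 1 CLP-cDC2 or CDP-cDC2 library (up to 0.087).

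Some cytokine and chemokine genes were lower. Il1b, the inflammatory cytokine interleukin-1 beta (ENSMUSG00000027398, chromosome 2 from 129206490 to 129213059), stood at 64.6, 57.5 and 72.3 FPKM in L-cDC2, 110, 138 and 131 in M-cDC2, 63.5, 56.2 and 59.5 in CLP-cDC2 and 207, 265 and 194 in CDP-cDC2. The 6 libraries of lymphoid origin shared a narrow range below all 6 of myeloid origin, and the difference was -1.41 ± 0.16 (SE, limma adjusted p = 0.00069), -0.95 in the reporter and -1.87 in the transfer system. Il1bos, on the opposite strand of Il1b, was lower as well (-0.78), and strand use in counting was not given in the sources used here. Il1rn, the natural antagonist of the interleukin-1 receptor, stood at 1.11, 1.25 and 1.03 FPKM in L-cDC2, 2.43, 2.45 and 2.52 in M-cDC2, 1.12, 1.23 and 1.78 in CLP-cDC2 and 5.20, 4.11 and 4.03 in CDP-cDC2. It was thus lower together with the cytokine it opposes, by -0.95 ± 0.13 (SE, limma adjusted p = 0.0017).

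Of 17 tested chemokines and cytokines 8 were lower and none was higher, with a median of -0.74. That list does not hold Xcl1, a chemokine gene that was higher (2.38) and was counted in the NK and innate lymphoid list. Besides Il1b and Il1rn these were Ccl9 (-1.44), the Ccr4 ligand Ccl22 (-1.32), the membrane-bound chemokine Cxcl16 (-1.18), Ccl6 (-1.07), the interferon-induced Cxcl9 (-0.94) and the monocyte attractant Ccl2 (-0.93). Ccl6 stood at 14.2 to 18.2 FPKM against 39.6 to 43.1 in the reporter and 21.5 to 40.5 against 40.4 to 61.2 in the transfer system, where the groups just touched. Ccl2 lost its call without L3, M2, CLP1 or CLP2 or CDP2 (up to 0.057). Cxcl9 lost its call without any 1 L-cDC2 library, M1 or M2, CLP2 or CLP3 or CDP1 or CDP2 (up to 0.097).

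Wfdc17, a small secreted protein of the WAP family, stood at 30.5, 37.5 and 35.8 FPKM in L-cDC2, 104, 110 and 111 in M-cDC2, 61.3, 36.9 and 56.6 in CLP-cDC2 and 183, 127 and 109 in CDP-cDC2. Its groups were separate, and its difference of -1.52 ± 0.15 (SE, limma adjusted p = 0.00028) was near-equal in the systems, -1.63 and -1.42. Adgre4, an adhesion G protein-coupled receptor of myeloid cells (-1.68), the membrane protein Mcemp1 (-1.55) and the activating receptor Cd300lb (-1.48) were lower. They kept their calls with any library left out, while their separate groups in both systems were a condition for being named. Mefv, which encodes pyrin, had -1.93, from -0.43 in the reporter and -3.42 in the transfer system, and lost its call without L3 or any 1 CLP-cDC2 or CDP-cDC2 library (limma adjusted p up to 0.10).

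Fc receptor genes were called in both directions. Fcgr2b, the inhibitory IgG receptor (ENSMUSG00000026656, chromosome 1 from 170786186 to 170804116), stood at 7.44, 5.89 and 6.65 FPKM in L-cDC2, 13.3, 14.2 and 12.7 in M-cDC2, 6.93, 6.88 and 7.28 in CLP-cDC2 and 15.9, 21.1 and 11.1 in CDP-cDC2. The origins did not overlap, and the difference was -0.98 ± 0.13 (SE, limma adjusted p = 0.0017), -0.91 and -1.04 in the reporter and transfer systems, and the gene overlaps Gm38204 on the other strand. The activating receptor Fcgr4 (-1.24), the neonatal Fc receptor Fcgrt (-0.66) and the shared signalling chain Fcer1g (-0.48) were lower too, while Fcer2a was higher. In total, 4 of 10 tested Fc receptor genes were lower and 1 was higher. Fcer1g lost its call without any 1 CLP-cDC2 library or CDP1 or CDP2 (up to 0.08).

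A few antigen presentation and lysosomal genes were lower. H2-Ab1, the beta chain of the MHC class II molecule I-A (ENSMUSG00000073421, chromosome 17 from 34476663 to 34488393), stood at 8053, 7424 and 7798 FPKM in L-cDC2, 9458, 9281 and 11075 in M-cDC2, 6712, 8371 and 7595 in CLP-cDC2 and 10586, 11336 and 10548 in CDP-cDC2. Every library of lymphoid origin was below every library of myeloid origin, by -0.44 ± 0.08 (SE, limma adjusted p = 0.016). After quantile normalization the difference was -0.11 and did not pass (limma adjusted p = 0.26). Of 11 MHC class II genes H2-Ab1 and H2-Eb1 (-0.50) were lower and none was higher, with a median of -0.35 and a count of 5 without CDP3. H2-Eb1 lost its call without L1 or L2, M3, any 1 CLP-cDC2 library or CDP1 or CDP2 (up to 0.081), which left a count of 1. Of 21 cathepsins and lysosomal genes Lyz2, the saposin precursor Psap (-0.69), the tetraspanin Cd63 (-1.04) and the hexosaminidase chain Hexa (-0.34) were lower and none was higher, with a median of -0.21 and a count of 2 without any 1 CLP-cDC2 library or CDP1 or CDP2. Cd63 lost its call without any 1 CLP-cDC2 library or CDP1 or CDP2 (up to 0.063). Hexa lost its call without L2 or L3, M1 or M2, any 1 CLP-cDC2 library or CDP1 or CDP2 (up to 0.085).

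Genes that define cDC2 and their transcription factors held no shared difference past the threshold in the additive fit, with the exception of Cd209a among 20 tested cDC2 identity genes. The identity list summed to 1168 to 1185 FPKM in L-cDC2, 1046 to 1171 in M-cDC2, 995 to 1036 in CLP-cDC2 and 1170 to 1212 in CDP-cDC2, so that all 3 CLP-cDC2 libraries lay below all 3 CDP-cDC2 libraries. Its median difference was 0.23 in the reporter and -0.70 in the transfer system, and 10 of the 20 genes depended on the system. From the transfer libraries alone 7 of the 20 were lower and none was higher, and from the reporter libraries alone 2 were higher and 1 was lower. Of 24 tested transcription factors of the dendritic cell lineage none was called in either direction. Irf4 had 0.10 (limma adjusted p = 0.82), Flt3 -0.01 (0.97), Klf4 -0.31 (0.35), Zeb2 -0.29 (0.49), Id2 0.46 (0.17) and Tcf4 0.31 (0.33). Irf8, which directs cDC1 development, had 0.07 (0.95) in the additive fit, with opposed differences in the systems. It stood at 28.9 to 31.3 FPKM in L-cDC2 and 56.1 to 59.7 in M-cDC2 (-0.95), but at 42.3 to 79.9 in CLP-cDC2 and 21.4 to 32.1 in CDP-cDC2 (1.10). The cDC1 list showed the same opposition, with a median of -0.60 in the reporter and 0.65 in the transfer system and no call among 13 tested.

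Sirpa, the phagocytosis checkpoint receptor used to define cDC2, did not pass over both systems (-0.46, limma adjusted p = 0.55), with 0.42 in the reporter and -1.33 in the transfer system. Ccr7, the receptor for migration to lymph nodes, likewise had 0.01 and -1.25 and did not pass (-0.62, 0.16). Of 14 tested migration and maturation genes Ccl22 alone was called, lower, with a list median of -0.44 (-0.29 without CDP3). For Irf8, Sirpa and Ccr7 the interaction was past the threshold (limma adjusted p = 0.0028, 0.014 and 0.006), so their additive values average unlike effects. Itgam (-0.15, 0.82) and Ly6c2 (0.47, 0.33) did not pass either. None of 2 tested neutrophil genes and none of 5 tested erythroid and platelet genes was called. The erythroid and platelet list had a median of 1.86 (1.22 without CLP2), and its summed level varied within groups, from 36.4 to 502 FPKM in L-cDC2 and from 53.7 to 495 in CLP-cDC2.

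No gene of oxidative phosphorylation, ribosomal proteins, glycolysis or cholesterol synthesis was called in either direction. The lists' median differences in the reporter and transfer systems were -0.10 and 0.35 for 42 genes of oxidative phosphorylation, -0.16 and 0.30 for 50 ribosomal protein genes, -0.11 and 0.01 for 19 genes of glycolysis and 0.02 and 0.20 for 22 genes of cholesterol synthesis. Of 27 type I interferon response genes Ifitm3, an antiviral membrane protein, was lower (-0.62) and none was higher. Ifitm3 lost its call without CLP2 (0.064), CDP1 (0.058) or CDP2 (0.061). Of 8 Notch pathway genes none was called, of 16 AP-1 and immediate early genes Atf3 (-1.33) and of 17 costimulation and checkpoint genes Tnfsf9, the ligand of 4-1BB (-0.76), were lower. Atf3 lost its call without L1 or L2, M2 or M3, CLP1 or CLP2 or CDP2 or CDP3 (up to 0.093). Tnfsf9 lost its call without L1, any 1 M-cDC2 library, CLP3 or CDP1 or CDP2 (up to 0.076).

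**Figure D4:**
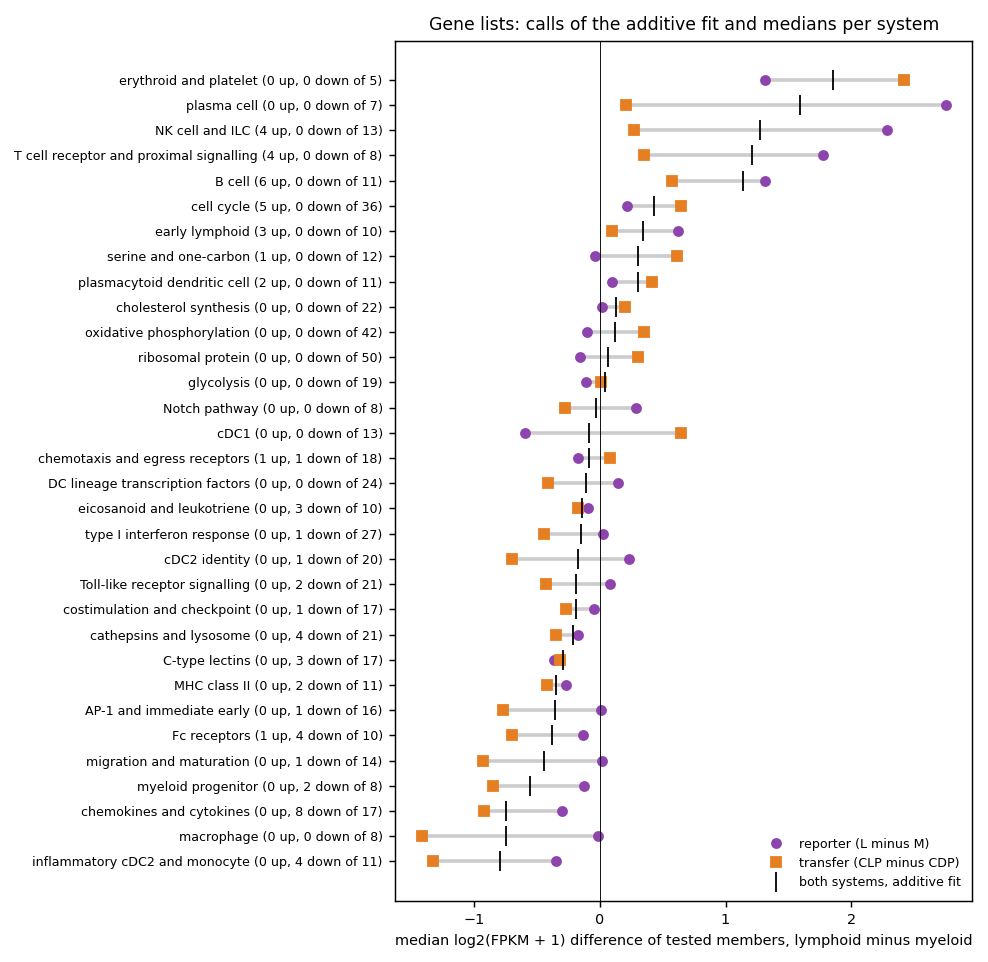
For each list with at least 5 tested genes, the horizontal axis gives the median log2(FPKM + 1) difference of its tested members in the reporter system (circles), in the transfer system (squares) and in the additive fit (ticks), with counts of called members beside the list's name. Lymphoid lists lie right of 0 and inflammatory, chemokine and macrophage lists left of it in the additive fit, while the cDC1 list has its circle at -0.60 and its square at 0.65.

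The size of the difference varied between systems for part of these genes. Over all genes tested the origin difference depended on the system for 871 (5.99%, limma adjusted p under 0.05 for the interaction), a count of 190, 322 and 397 without L2, L3 and L1, 348 and 514 without M2 and M3, 424 and 512 without CLP2 and CLP1 and 578 without CDP3. Of the 137 higher genes it did so for 26, of which 15 were larger in the reporter system and 11 in the transfer system. Of the 125 lower genes it did so for 22, all larger in the transfer system. Regardless of the interaction test, the lower genes had a median difference of -0.66 in the reporter and -1.07 in the transfer system, and 100 of them were larger in the transfer system. Ly6d, Tcf7, Lck, Gal, Fcer2a, Il7r, Ltb4r1, Wfdc17, Cd14 and Fcgr2b were not past the threshold of the interaction (limma adjusted p from 0.22 to 0.88), which does not show that their effects are equal.

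Windows of 250 bases before the start site were taken from RefSeq (GRCm38.p6) to show the sequence next to genes that differed in both systems. They are those of the 2 named called genes per direction with the lowest adjusted p that had separate groups in both systems, a window holding at least 1 searched motif, no 30 bases shared with a transcript of the gene and no open reading frame of 40 codons running to its end. Capitals mark matches to the motifs, on either strand.
Fcer2a: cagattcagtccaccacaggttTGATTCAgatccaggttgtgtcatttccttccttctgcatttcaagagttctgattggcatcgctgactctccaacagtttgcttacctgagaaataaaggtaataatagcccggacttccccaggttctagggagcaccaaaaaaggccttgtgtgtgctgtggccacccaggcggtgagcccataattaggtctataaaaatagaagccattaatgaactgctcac
Ccr6: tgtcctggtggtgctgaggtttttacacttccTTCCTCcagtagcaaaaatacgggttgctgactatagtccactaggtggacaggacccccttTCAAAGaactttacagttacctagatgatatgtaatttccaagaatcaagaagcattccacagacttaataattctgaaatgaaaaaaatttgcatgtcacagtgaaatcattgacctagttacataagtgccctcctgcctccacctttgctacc
Ltb4r1: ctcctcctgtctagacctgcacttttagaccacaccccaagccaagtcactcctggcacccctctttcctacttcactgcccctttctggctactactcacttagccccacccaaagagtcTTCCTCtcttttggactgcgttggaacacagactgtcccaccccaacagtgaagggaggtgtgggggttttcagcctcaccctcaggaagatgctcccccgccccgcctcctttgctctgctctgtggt
Clec7a: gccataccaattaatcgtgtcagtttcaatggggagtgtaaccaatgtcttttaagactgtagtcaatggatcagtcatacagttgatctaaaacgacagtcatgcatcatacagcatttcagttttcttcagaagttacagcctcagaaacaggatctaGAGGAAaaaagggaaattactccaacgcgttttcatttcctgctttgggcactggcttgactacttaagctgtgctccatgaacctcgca
The window of Fcer2a, higher in lymphoid origin (chr8:3694175-3694424, minus strand), held an AP-1 match from -228 to -222 of the start site. That of Ccr6, also higher (chr17:8235793-8236042, plus strand), held a PU.1 match from -218 to -213 and a TCF/LEF match from -156 to -151. That of Ltb4r1, lower (chr14:55765712-55765961, plus strand), held a PU.1 match from -129 to -124, and that of Clec7a, lower (chr6:129472786-129473035, minus strand), a PU.1 match from -90 to -85. No matches overlapped in these 4 windows.

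Searched motifs were GAGGAA for PU.1, CTTTGA for TCF/LEF, TGANTCA for AP-1, TTGCNNAA for C/EBP and CACCTG for an E-box, on both strands. Windows, the most upstream per gene, were matched by symbol for 79 of the 137 higher genes, 94 of the 125 lower genes and 8613 of the genes tested. The PU.1 motif lay in 20.3% of the windows of higher genes and 28.7% of those of lower genes, beside 22.7% of windows of tested genes and 23.1% of all windows. The TCF/LEF motif lay in 8.86%, 16.0%, 11.01% and 14.1% in the same order, the AP-1 motif in 6.33%, 9.57%, 4.03% and 6.85%, the C/EBP motif in 6.33%, 9.57%, 7.50% and 9.55% and the E-box in 13.9%, 12.8%, 14.2% and 17.1%. These shares are descriptions of letters, not of binding.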

How the data were processed

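RNA from 12 libraries of splenic cDC2 was made into SMART-Seq HT and Nextera XT libraries, per the labels' protocols. The authors deposited FPKM for 55322 genes, and per the submitters' processing notes the tools named, without role or order, were featureCounts 2.0.1, cutadapt 3.7, STAR 2.7.9a, Trimmomatic 0.39, DESeq2 1.20.0 and Trim Galore 0.6.7. The use of strand and the build of the deposited coordinates are not given in the sources used here. Total reads were recovered from the steps of the low FPKM values, taking the commonest low value as 1 read.

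Groups came from the labels. limma 3.58.1 (R 4.3.3; lmFit and eBayes with trend, two-sided) was fitted to log2(FPKM + 1) with origin and system as terms (9 residual degrees of freedom), which understates changes of low genes. The 14538 genes that reached 1 FPKM in 3 or more libraries were tested and p-values adjusted over them by Benjamini-Hochberg, with calls under 0.05. Contrasts within a system and their interaction came from a fit of the 4 groups (8 residual degrees of freedom), whose residual spread differs from that of the additive fit. On simulated data for the additive comparison (14538 genes, 200 changed), 91% of 2-fold and 98% of 4-fold changes were recovered. The changed genes were drawn from those above a set mean level, with normal noise and the same effect in both systems. These rates therefore do not cover low genes or effects that differ between the systems.

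Named genes were, among called genes without overlap in both systems and a mean of 5 FPKM or more in the higher origin in each, the 15 largest differences per direction, then the 8 largest per direction that were at least 4 times larger in 1 system, up to 3 called members of each of 33 lists by adjusted p, and 24 genes fixed by name. Further called list members (such as Fcrla, Ighm, Cd79b, Cenpe, Cenpf, Ccl9, Cxcl16, Cxcl9, Ccl2, Fcgr4, Fcer1g and Hexa) and Il1bos were added with their values known. The rule for the printed windows was also set after windows and matches were seen. The comparison, members and lists were chosen with earlier results of these data known. Alternatives were other pseudocounts, filters, scalings and models, and each library left out in turn.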

Additional observations from a re-analysis of the deposited data

Results flagged for a closer look

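For 30 named genes the difference by origin was itself different between the systems, by the interaction term of a limma fit of 4 group means (adjusted p under 0.05 over all genes tested). Values are the reporter difference minus the transfer difference in log2(FPKM + 1). They were -2.04 for Irf8, -1.60 for Phgdh, -0.71 for the chromosomal passenger protein Cdca8 and -0.69 for Cdc20. Among genes lower in lymphoid origin, where a positive value means a larger fall in the transfer system, they were 0.86 for Csf2ra, 0.92 for Il1b, 1.07 for Sirpb1c, 1.09 for Csf1r, 1.15 for Ptafr, 1.25 for Clec7a, 1.32 for Cd63, 1.53 for Cd209a, 1.55 for Lyz2, 1.66 for the nucleotide receptor P2ry6, 1.72 for Cd300lb, 1.78 for the matrix protein Tgfbi, 1.79 for Pla2g7 and 2.99 for Mefv. Among genes higher in lymphoid origin, where a positive value means a larger rise in the reporter system, they were 1.03 for the transcription factor Ets1, 1.76 for Xcl1, 2.03 for the lymphocyte GTPase Gimap1, 2.18 for Cd2, 2.56 for Trbc2, 2.75 for Ncr1, 4.30 for the lambda light chain gene Iglc3 and 4.80 for Nkg7. For genes that did not pass in the additive fit they were 1.24 for Itgam, 1.26 for Ccr7, 1.68 for S1pr1 and 1.74 for Sirpa.

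Over both systems Ets1 (0.84), Gimap1 (1.45) and Iglc3 (2.94) were higher and Tgfbi (-1.27) and P2ry6 (-1.36) lower, and each lost its call when some single libraries were left out. These were each L-cDC2 and each M-cDC2 library for Ets1, Gimap1 and Iglc3, CLP2 and CDP1 for Ets1, Gimap1, Tgfbi and P2ry6, CLP1 for Gimap1 and Tgfbi, and CLP3 and CDP2 for Tgfbi (limma adjusted p up to 0.094). Cdca8 (0.57) lost its call without every single library other than L2 and M3 (up to 0.094).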

How the results depend on the processing

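No called value changed sign under the settings run. Counts of genes higher and lower in lymphoid origin (137 and 125) were 47 and 49 with no filter on low values, 475 and 351 with 4 group means, 331 and 198 with array weights, and 312 and 375 from the transfer libraries alone. The higher count was 209 with voom on recovered reads and 218 from the reporter libraries alone. The count that depended on the system (871) was 255 with no filter, 2044 with array weights and 460 without CDP3 and M3. Genes without overlap in both systems (233 above, 200 below) numbered 146 and 132 at a filter of 5 FPKM, and 483 and 430 without those libraries, where fewer libraries overlap less by construction. With each library left out in turn, the higher count ran from 71 to 162, the lower from 82 to 137, the count that depended on the system from 190 to 1240, and the counts without overlap from 253 to 434 above and from 209 to 304 below. With the replicate number as a block the counts were 41 higher, 45 lower and 528 that depended on the system. Same-numbered libraries did not deviate together (r of 0.13, -0.22 and -0.08 in the reporter and -0.03, 0.28 and 0.09 in the transfer system), so the numbers were not taken as pairs. Of 79 named genes 66 were called, and of these 36 lost their call with no filter, 30 with the block and 4 with voom. Quantile normalization ended the calls of H2-Ab1, Ighm, Cenpe, Cenpf, Csf2ra and Cd300c, and median-of-ratios scaling those of Aurka, Cdca8, Cdc20, Cenpe and Cenpf. Both scalings, other pseudocounts and protein-coding genes alone kept both counts within 1.5 times. Depth limits low genes: 3 reads of Xcl1 are worth 0.102 to 0.157 FPKM in CDP-cDC2.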

Other observations

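Gene families that were looked at after their values were seen held further called genes. Of 8 tested CD300 receptors, a family of paired myeloid receptors, Cd300c2, Cd300lb, Cd300ld and Cd300c were lower in lymphoid origin and none was higher, with a median of -0.60. Of 7 tested GIMAP genes, GTPases of lymphocytes, Gimap9 and Gimap1 were higher, and the fitted difference of all 7 lay between 0.83 and 2.03. Of 8 tested MS4A genes, Ms4a4b and Ms4a1 were higher and Ms4a7 and Ms4a6d lower. Both TMEM176 genes (Tmem176a and Tmem176b, median -0.77) were lower, as were Slamf8 and Slamf9 of 4 tested SLAM family genes and S100a6 and S100a4 of 8 tested S100 genes. Prg2 and Prg3, the eosinophil granule proteins, were both higher, with a median of 1.26.

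By the gene ontology terms in the deposited table, also chosen after values were seen, 21 of 325 tested genes of cell division were higher and 1 was lower, while none of 114 genes of DNA replication was called in either direction. Over all genes tested, 0.942% were higher and 0.860% lower. Mitosis genes such as Aurka, Cdc20, Cdca8 and Nuf2 lost their calls with median-of-ratios scaling, and how many of the 21 did was not counted. Of 156 genes of the inflammatory response 15 were lower and 3 higher, with a median difference of 0.06 in the reporter and -0.36 in the transfer system. Of 14 genes with chemokine activity 6 were lower and 1 was higher, with medians of -0.19 in the reporter and -0.82 in the transfer system. Of 28 genes of B cell receptor signalling 4 were higher and none was lower, with medians of 0.39 in the reporter and -0.22 in the transfer system. Of 56 genes of T cell receptor signalling none was higher and 1 was lower, with a median of -0.03.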
